A study of Mus musculus with 6 samples.

Results

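The genes described here are those of the core cascade that runs from RAS through RAF and MEK to ERK. They are Hras, Nras, Araf, Braf, Map2k1, Map2k2 and Mapk3, 7 of the 39179 genes listed in the series, and were chosen by symbol for their place in the cascade, not by their values. All 7 were among the 14264 genes that reached 0.5 RPKM in 2 or more libraries, out of 6. RNA was measured in Ocy454 cells, a mouse osteocytic line, of which a single-cell subclone was used. The cells reached confluency at 33 °C, were held at 37 °C for 14 days and were treated for 4 h, with 2 libraries per condition. By the sample records, vehicle was PBS with 25 mM HCl, while the paper's methods describe DMSO stocks of the compounds for work in culture. PTH was 1 nM parathyroid hormone, and YKL-05-093 was 0.5 µM of a small-molecule inhibitor of salt-inducible kinases (SIKs). All samples were handled alike until the compounds were added. The study asked how far SIK inhibition resembles the response of osteocytes to PTH. The values below show how the transcripts of the cascade stood in that response.

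RAS proteins are small GTPases that switch on when growth factor receptors recruit exchange factors to the membrane. GTP-bound RAS activates RAF kinases, RAF phosphorylates the kinases MEK1 and MEK2, and these phosphorylate the ERK kinases, which act on transcription factors and on many cytoplasmic proteins. The cascade is switched mainly by GTP loading and phosphorylation, which RNA levels do not measure. In bone cells, cyclic AMP, the second messenger of the PTH receptor, is known to act on the cascade at the level of RAF.

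Between 17505798 and 27983585 reads lay behind each library, and between 612 and 3626 behind each value of a member. The cells showed osteoblast and osteocyte transcripts, with 10 of 13 markers passing the filter, Col1a1 at 259 to 430 RPKM and Pth1r, the PTH receptor, at 33.4 to 70.7. Of the defining osteocyte markers, Dmp1 was low, at 0.376 to 1.15 RPKM, and Sost and Fgf23 had at most 3 reads in every library. Of 12 markers of other cell types, 3 passed (Cd68, Col2a1 and Tubb3), and 6 had at most 3 reads in every library. The summed level of the 12 was 18.4 to 24.3 RPKM in vehicle, 18.6 to 22.2 with PTH and 20.4 to 21.3 with YKL-05-093. Most of this sum was Tubb3, at 13.1 to 19.4 RPKM, so it hides changes of low markers. Col2a1 was at 0.625 and 0.577 RPKM in vehicle, 1.71 and 1.54 with PTH, and 0.730 and 0.771 with YKL-05-093. The vehicle libraries differed from each other more than the others did. The median absolute difference between replicates over the genes that passed, on log2(RPKM + 0.1), came to 0.333 between the vehicle libraries, 0.108 between those of PTH and 0.103 between those of YKL-05-093.

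At the RAS step, neither Hras nor Nras was called in any comparison, and the deposited RPKM was higher for Nras, an order that rests on the gene lengths behind it. Hras (ENSMUSG00000025499, chr7:141189105-141194005 of GRCm38, minus strand) encodes a RAS GTPase anchored to the membrane by farnesyl and palmitoyl groups. It was measured at 10.2 and 14.1 RPKM in the vehicle libraries, 11.03 and 10.5 with PTH, and 11.2 and 10.7 with YKL-05-093. The vehicle libraries were the lowest and the highest of the 6, so all 4 treated libraries lay between them. Nras (ENSMUSG00000027852, chr3:103058285-103067914, plus strand), its close relative, was measured at 31.8 and 27.4 RPKM in vehicle, 27.9 and 24.8 with PTH, and 27.3 and 26.6 with YKL-05-093. The PTH libraries overlapped vehicle, whereas both YKL-05-093 libraries lay below both vehicle libraries by a small margin. The group means of Nras were 29.6 ± 3.11 RPKM in vehicle, 26.4 ± 2.16 with PTH and 27.0 ± 0.524 with YKL-05-093 (SD, n = 2 each).

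Among the RAF kinases, Araf was steady and Braf the least abundant and most variable member. Araf (ENSMUSG00000001127, chrX:20797814-20860519, plus strand) encodes A-RAF, a serine/threonine kinase with weaker activity towards MEK than B-RAF. Its level was 11.9 and 12.9 RPKM in vehicle, 12.7 and 12.3 with PTH, and 11.7 and 12.2 with YKL-05-093. Vehicle overlapped both treatments, and the highest library was only 1.11 times the lowest. Braf (ENSMUSG00000002413, chr6:39603237-39725463, minus strand) encodes B-RAF, the RAF kinase with the highest basal activity towards MEK. Its level was 4.80 and 2.35 RPKM in vehicle, 3.79 and 3.63 with PTH, and 3.28 and 3.21 with YKL-05-093. The vehicle libraries again enclosed the other 4, and vehicle replicate 1 was 2.04 times vehicle replicate 2. The treated pairs were tight, with both PTH libraries above both YKL-05-093 libraries. In the annotation, exons of Braf share 146 bases with Ndufb2 on the opposite strand, and those of Araf 9 bases with Syn1. The kit kept the strand, but whether the counting used it is not stated.

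**Figure D1:**
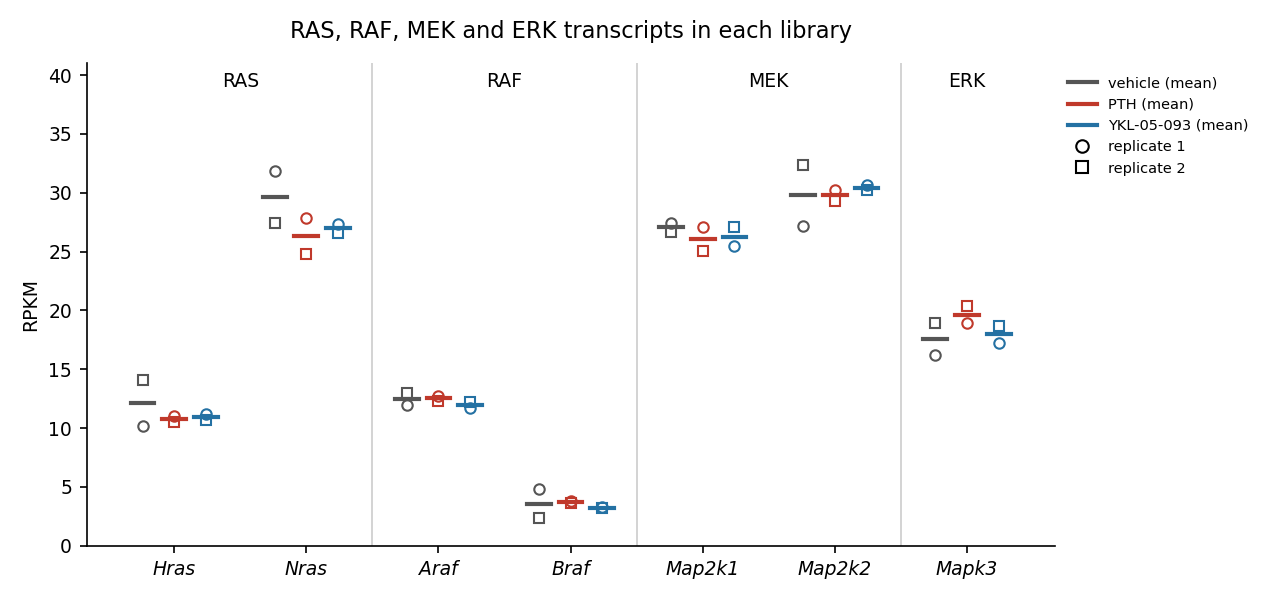
RPKM (linear axis from 0) of the core genes in each of the 6 libraries, by step of the cascade, with circles for replicate 1, squares for replicate 2 and a bar at the mean of each condition. The vehicle points of Hras and Braf lie on either side of the treated ones.

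The promoter of Braf is shown because PTH raises cyclic AMP, whose response element (CRE) has the full form TGACGTCA, and Braf was the one member with that form. The sequence is that of RefSeq on GRCm38.p6, chr6:39725414-39725713, minus strand, 300 bases that span the annotated start. Both full CREs are in capitals.
Braf promoter: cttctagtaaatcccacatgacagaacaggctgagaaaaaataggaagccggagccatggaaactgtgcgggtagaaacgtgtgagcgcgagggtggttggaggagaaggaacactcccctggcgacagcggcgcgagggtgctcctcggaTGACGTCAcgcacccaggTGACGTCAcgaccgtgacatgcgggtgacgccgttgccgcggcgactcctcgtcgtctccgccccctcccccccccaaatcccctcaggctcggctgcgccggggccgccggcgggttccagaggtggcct
They begin 99 and 81 bases before the start. TGACGTCA reads the same on both strands, and each copy also holds the short form TGACG on either strand. Another short form, outside the capitals, lies 56 bases before the start. Promoters were in the table for 6 of the 7 members (Mapk3 was the one not matched). The full CRE was found in 588 of 32851 promoters of this length (1.79%), the short form in 20.8%. Hras held the short form at 109 and 33 bases before its start and Map2k1 at 149 and 136, while Nras, Araf and Map2k2 had no match in this window. The TATA box letters TATAAA, found in 13.6% of promoters, occurred in none of the 6. The Braf promoter was 65% G and C, against a median of 52.7% over all promoters. A match is a description of the letters and does not show binding. Of 326 tested genes with a full CRE, 6 were higher after PTH at an adjusted p under 0.05 in limma, at any size (1.84%). Of the 8836 tested genes with a promoter in the table, 114 were (1.29%). Braf was not among them.

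At the MEK step, neither Map2k1 nor Map2k2 was called in any comparison. Map2k1 (ENSMUSG00000004936, chr9:64185770-64253631, minus strand) encodes MEK1, one of the dual-specificity kinases that phosphorylate ERK. It was measured at 27.5 and 26.7 RPKM in vehicle, 27.1 and 25.0 with PTH, and 25.5 and 27.0 with YKL-05-093. Map2k2 (ENSMUSG00000035027, chr10:81105915-81133975, plus strand) encodes its partner MEK2. Its level was 27.2 and 32.4 RPKM in vehicle, 30.2 and 29.3 with PTH, and 30.6 and 30.2 with YKL-05-093. All treated libraries of Map2k2 lay between the vehicle libraries, and the conditions of Map2k1 overlapped. Map2k1 had the lowest coefficient of variation over the 6 libraries of any member, 3.70%, beside 22.9% for Braf.

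Mapk3 (ENSMUSG00000063065, chr7:126759601-126765819, plus strand) encodes ERK1, the last kinase of the cascade. It was measured at 16.2 and 18.9 RPKM in vehicle, 18.9 and 20.4 with PTH, and 17.3 and 18.7 with YKL-05-093. PTH was on average highest, at 19.6 ± 1.04 RPKM, beside 17.6 ± 1.92 in vehicle and 18.0 ± 1.03 with YKL-05-093 (SD, n = 2 each). The lower PTH library lay just under the higher vehicle library, and both PTH libraries lay above both YKL-05-093 libraries.

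None of the 7 genes was called after PTH. Each comparison was fitted over all genes with limma on log2(RPKM + 0.1), and a gene was called at a Benjamini-Hochberg adjusted p under 0.05 and more than 2-fold. Of 14261 genes tested for PTH against vehicle, 272 were called (1.91%), and 0 of 7 members were, nor did any have an unadjusted p under 0.05. The largest changes were those of Nras, -0.17 on the log2 scale (SE 0.17, adjusted p = 0.76 from limma), and Mapk3, 0.16 (SE 0.17, adjusted p = 0.759 from limma). Map2k2 was at 0.0047, Araf at 0.010, Map2k1 at -0.056 and Hras at -0.15. The fold change of Braf, 0.14, carried the widest error (SE 0.30). The 95% intervals of the members together ran from -0.61 to 0.84, or 0.654- to 1.80-fold, the lower end being that of Hras and the upper that of Braf. The narrowest interval was that of Araf, -0.36 to 0.38. The libraries of PTH and vehicle overlapped for all 7 members, where 43% of genes had libraries that did not overlap. The median absolute log2 fold change was 0.14 over the members and 0.20 over all genes tested. These p-values measure the spread between 2 libraries per condition, and nothing in the labels says that these came from separate cultures.

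After YKL-05-093 the members were also not called. Of 14255 genes tested, 95 were called (0.666%), 0 of them members, with 0 members at an unadjusted p under 0.05. The changes ran from -0.13 for Nras (SE 0.16, adjusted p = 0.892 from limma) to 0.036 for Map2k2, with Hras at -0.13, Araf at -0.056, Braf at -0.053, Map2k1 at -0.044 and Mapk3 at 0.035. The 95% intervals together ran from -0.78 to 0.67, or 0.584- to 1.59-fold, with both ends set by Braf. Nras was the 1 member of 7 whose libraries did not overlap those of vehicle, where 37.8% of genes had none in common. The median absolute log2 fold change was 0.053 over the members and 0.18 over all genes. Both comparisons use the same vehicle libraries, so they are not independent of each other.

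**Figure D2:**
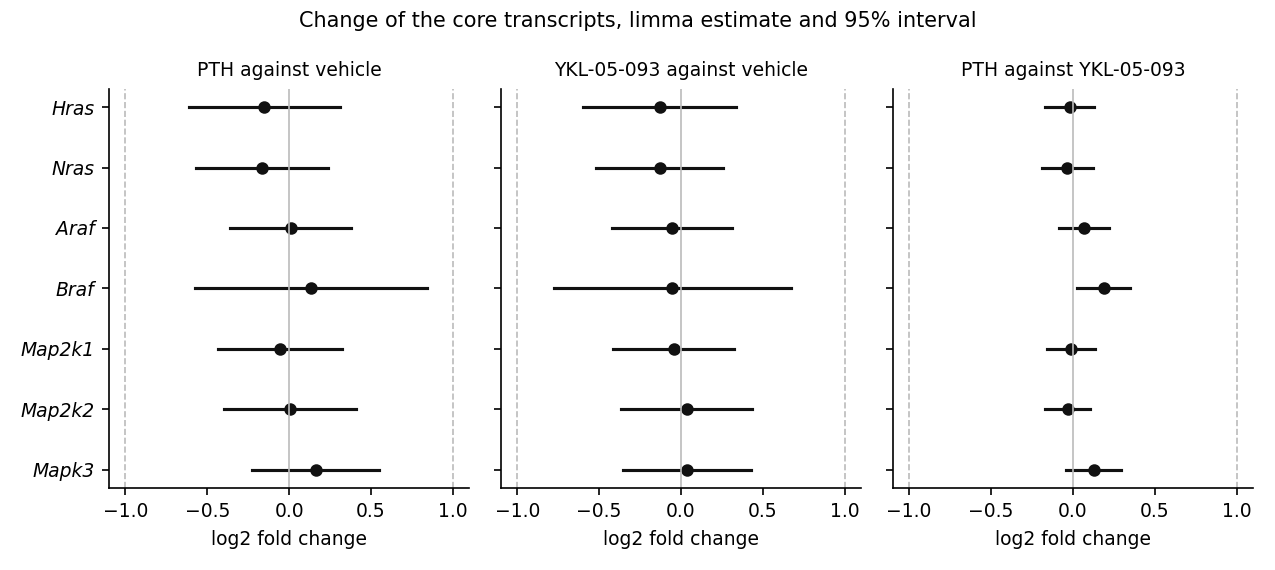
Log2 fold change (points) and 95% interval (lines) from limma for each core gene in the 3 comparisons, with dashed lines at a 2-fold change. No member reaches a 2-fold change at either end of its interval, and the intervals are narrowest between the treatments.

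In the direct comparison of PTH with YKL-05-093, which leaves out the vehicle libraries, the errors were smaller and the members still not called. Of 14255 genes, 172 were called (1.21%) and 1421 had an adjusted p under 0.05 at any size (9.97%), with 0 of 7 members in either. Braf was higher after PTH than after YKL-05-093 by 0.19 on the log2 scale (SE 0.077, 95% interval 0.026 to 0.35). It was the 1 member with an unadjusted p under 0.05, and it missed the threshold after adjustment (adjusted p = 0.15 from limma). Mapk3 was at 0.13 (SE 0.079, adjusted p = 0.393 from limma) and Araf at 0.066 (adjusted p = 0.664 from limma). Libraries did not overlap for these 3 of the 7 members, PTH being higher, where 50% of genes did not overlap. The other 4 lay between -0.035 (Nras) and -0.013 (Map2k1). Across the members the 95% intervals ran from 0.876- to 1.28-fold.

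The vehicle replicates decided the direction for Braf. On the log2 scale vehicle replicate 2 was lower than replicate 1 (difference -0.998), a larger difference than in 94.2% of genes, while the PTH pair differed by -0.062 and the YKL-05-093 pair by -0.031. Without vehicle replicate 1, Braf was higher after PTH by 0.64 (adjusted p = 0.0151 from limma), and without vehicle replicate 2 it was lower, at -0.36 (adjusted p = 0.0337 from limma). For YKL-05-093 the values were 0.45 (adjusted p = 0.105 from limma) and -0.55 (adjusted p = 0.03 from limma). Hras also turned, from -0.38 without vehicle replicate 1 (adjusted p = 0.0463 from limma) to 0.083 without vehicle replicate 2. In these fits the lone vehicle library is assumed to vary like the treated ones.

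The difference between the vehicle replicates went with gene length. Over 14116 genes its Spearman correlation with length was -0.531, beside -0.0187 within PTH and 0.179 within YKL-05-093 (across genes, which are not independent replicates). In the longest twentieth of genes, with a median of 11771 bases, the median difference was -0.65. At 10737 bases, Braf is the longest member, and Mapk3, at 2154 bases, the shortest, with a vehicle difference of 0.22. Hras, at 4894 bases, Araf, at 4311, and Map2k2, at 4002, went the other way from genes near their lengths. Their differences were 0.47, 0.12 and 0.25, beside medians of -0.26, -0.21 and -0.12 for such genes. Nras, at 2800 bases, also went the other way, with -0.21. Genes just shorter and just longer than Nras had medians of 0.064 and 0.019. Map2k1, at 3649 bases, had the sign of genes near its length, with -0.041 beside a median of -0.104. With smooth trends on GC content and length removed, an alternative added after the data were seen, the change of Braf became 0.31 for PTH (limma adjusted p = 0.264) and 0.12 for YKL-05-093 (limma adjusted p = 0.747). The part of length in the Braf values was not tested beyond this.

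**Figure D3:**
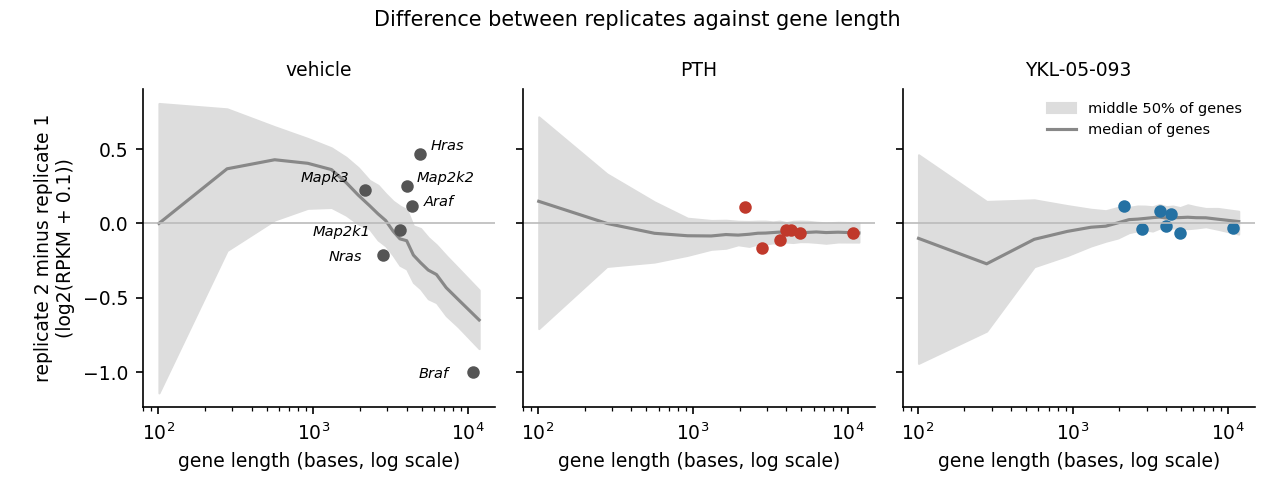
Difference of replicate 2 from replicate 1 on log2(RPKM + 0.1), against gene length in bases (log axis), with the median and middle 50% of genes in 20 bins of length (grey) and the 7 members as points. In vehicle the grey band falls with length and Braf lies lowest, at -0.998, while in PTH and YKL-05-093 the band is near 0 for long genes.

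RPKM is per length, so the order of the members' levels depends on the gene lengths used. As deposited, Map2k2, Nras and Map2k1 had the highest means over 6 libraries, 29.996, 27.7 and 26.5 RPKM. Mapk3 followed at 18.4 RPKM, then Araf at 12.3 and Hras at 11.3. Braf, at 3.51 RPKM, was the only member below the median gene (6.68 RPKM). On these values, in vehicle, the libraries of Map2k2 and Nras overlapped, as did those of Nras and Map2k1, and of Araf and Hras. After either treatment Araf lay above Hras in every library, and Map2k2 above Nras, while Nras and Map2k1 still overlapped. The lengths behind these RPKM, recovered from the values, differed from the merged exons of GENCODE M21. For Nras they were 2800 and 5331 bases, for Hras 4894 and 3733, for Araf 4311 and 6541, and for Map2k2 4002 and 5663. With annotated lengths, an alternative added after the data were seen, Map2k1 was highest at 28.5 RPKM, followed by Map2k2 at 21.2 and Mapk3 at 17.6. Hras and Nras were then close, at 14.8 and 14.5 RPKM, above Araf at 8.11 and Braf at 2.72. Nras thus moved by 1.90 times and left the highest 3, while Braf was lowest with both lengths. The changes between conditions are within a gene, so the length used for its RPKM cancels, apart from the constant added before the log. This does not remove the trend with length between the vehicle libraries. With GC and length trends removed, Braf moved from 0.14 to 0.31 for PTH and from -0.053 to 0.12 for YKL-05-093.

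Ratios within a library do not depend on how libraries were scaled, though their size depends on the lengths. Hras to Nras was 0.319 and 0.514 in vehicle, 0.395 and 0.424 with PTH, and 0.409 and 0.402 with YKL-05-093, with both treatments inside the vehicle range. Araf to Braf was 2.49 and 5.50 in vehicle, 3.35 and 3.40 with PTH, and 3.57 and 3.81 with YKL-05-093, again inside the vehicle range, with PTH below YKL-05-093 in every library. Map2k1 to Map2k2 was 1.01 and 0.824 in vehicle, 0.895 and 0.854 with PTH, and 0.833 and 0.894 with YKL-05-093. These 3 ratios overlapped vehicle after both treatments. With annotated lengths, the mean over 6 libraries went from 0.411 to 1.02 for Hras to Nras, from 3.69 to 3.14 for Araf to Braf and from 0.885 to 1.35 for Map2k1 to Map2k2.

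**Figure D4:**
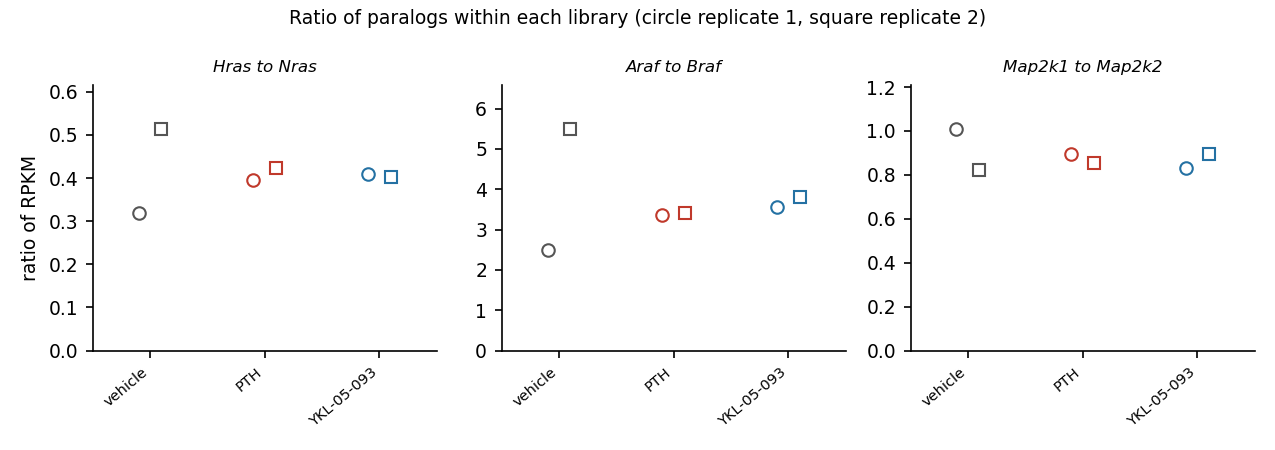
Ratio of RPKM of 2 paralogs within each library (linear axes from 0), as deposited, circles for replicate 1 and squares for replicate 2. In each panel the 4 treated libraries lie between the vehicle libraries.

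The genes whose profile over the 6 libraries was most like that of each member were searched among 11011 genes averaging 100 reads or more, by Pearson correlation of log2(RPKM + 0.1). For Hras these were Timm17a (r = 0.998) and Cdk4 (r = 0.995), and for Nras Six5 (r = 0.990) and Glce (r = 0.983). For Araf they were Plrg1 (r = 0.996) and Rabepk (r = 0.991), and for Braf E130307A14Rik (r = 0.996) and Bcr (r = 0.995). Map2k1 was most like Dolpp1 (r = 0.983) and Emx2 (r = 0.982), Map2k2 most like Sdhc (r = 0.996) and Nabp2 (r = 0.994), and Mapk3 most like Btg2 (r = 0.977) and Aup1 (r = 0.976). Such values are reached by search over 6 libraries that share the vehicle difference, and Braf had 160 genes above 0.95. Among the members, r ran from -0.945 for Braf and Map2k2 to 0.831 for Hras and Map2k2, so their small variation was not shared by all.

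Around the core, most genes of the pathway were likewise not called against vehicle, with a few exceptions upstream and at the RAF step. For genes of these other lists, a call means an adjusted p under 0.05 in limma at any size of change. Of 15 tested adaptors and exchange factors, 1 rose after PTH, where 1.26% of all genes were higher. This was Shc2, an adaptor that couples receptors to RAS activation. Shc2 was at 1.85 and 1.58 RPKM in vehicle, 12.5 and 11.2 with PTH, and 7.11 and 7.29 with YKL-05-093. PTH raised it by 2.73 on the log2 scale (SE 0.17, adjusted p = 0.000991 from limma), and YKL-05-093 by 2.01 (SE 0.16, adjusted p = 0.00801 from limma). All treated libraries lay above vehicle, and PTH was higher than YKL-05-093 by 0.71 (adjusted p = 5.44e-06 from limma). In 1 fit of all 6 libraries this difference between the treatments did not pass (adjusted p = 0.0622 from limma). The call for YKL-05-093 was lost without YKL-05-093 replicate 1 (adjusted p = 0.067 from limma, log2 fold change 2.03), and that of PTH over YKL-05-093 without PTH replicate 1 (0.63) or 2 (0.79).

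At the RAF step, the RAF-like kinase Ksr1 rose after PTH. Ksr1, a scaffold that brings RAF, MEK and ERK together, was at 3.00 and 1.98 RPKM in vehicle, 7.28 and 6.72 with PTH, and 4.11 and 4.46 with YKL-05-093. After YKL-05-093 it changed by 0.79 on the log2 scale (SE 0.22, adjusted p = 0.272 from limma) and did not pass. PTH was higher than YKL-05-093 by 0.70 (adjusted p = 2.19e-05 from limma), though not called in 1 fit of all 6 libraries. After PTH Ksr1 rose by 1.48 (SE 0.22, adjusted p = 0.0179 from limma). It was not called with no filter on low values or with the variance trended on the mean value. The call after PTH was also lost without PTH replicate 1 (1.43) or PTH replicate 2 (1.54).

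Of 11 other RAS-family GTPases, 9 GTPase-activating proteins, 10 genes of RAS lipid processing, 21 scaffolds and RAF regulators, and 20 genes of other MAPK cascades that were tested, 0 had an adjusted p under 0.05 against vehicle for either treatment in limma. At any size, 2.19% of all genes did so for PTH (1.26% higher, 0.94% lower) and 0.666% for YKL-05-093 (0.393% higher, 0.274% lower). The medians of these lists lay between -0.26 and 0.051 with PTH, beside -0.031 for all genes. In the direct comparison Rras2, a RAS-related GTPase, was lower after PTH than after YKL-05-093. It was at 22.9 and 25.5 RPKM in vehicle, 24.2 and 22.7 with PTH, and 38.7 and 40.3 with YKL-05-093 (log2 difference -0.75, adjusted p = 1.98e-06 from limma). PTH and vehicle overlapped for Rras2, and both YKL-05-093 libraries lay above them. Rapgef3, the cyclic AMP-activated exchange factor EPAC1, was higher after PTH than after YKL-05-093 (0.96), and Frs2, a docking protein of growth factor receptors, was lower (-0.67). Ywhah (-0.37) and Cdc37 (-0.24), a 14-3-3 protein and a kinase chaperone, were lower after PTH. Of the other MAPK cascades, Map2k6 was lower (-0.52), and Map2k3 (0.27) and Map3k3 (0.22) were higher. In 1 fit of all 6 libraries, 146 genes had an adjusted p under 0.05 between the treatments, beside 1421 with 4 libraries. There the calls of Rras2 and Rapgef3 held, while those of Frs2, Ywhah, Cdc37, Map2k6, Map2k3 and Map3k3 were lost. Without PTH replicate 1 or without PTH replicate 2, limma called 0 genes at any size in the direct comparison, with 2130 and 2022 genes at an unadjusted p under 0.05, so each of these calls was lost without either, with log2 differences of -0.79 and -0.70 for Rras2, 0.91 and 1.01 for Rapgef3, and -0.60 and -0.73 for Frs2. Without either YKL-05-093 library these 3 calls held, while those of Ywhah (adjusted p = 0.0771 and 0.09998 from limma), Cdc37 (adjusted p = 0.164 and 0.31 from limma), Map2k6 (adjusted p = 0.117 and 0.14 from limma), Map2k3 (adjusted p = 0.235 and 0.168 from limma) and Map3k3 (adjusted p = 0.276 and 0.231 from limma) were lost without YKL-05-093 replicate 1 or 2.

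Downstream of the core, of 14 tested ERK substrate kinases and transcription factors, 2 fell after PTH, both transcription factors, where 0.94% of all genes were lower. Erf, a repressor that ERK inactivates, was at 15.2 and 15.3 RPKM in vehicle, 7.57 and 8.40 with PTH and 10.01 and 10.05 with YKL-05-093. Srf, the serum response factor, was at 17.9 and 16.1 RPKM in vehicle, 9.30 and 9.50 with PTH and 11.7 and 11.6 with YKL-05-093. Both lay below vehicle in all 4 treated libraries, with log2 changes after PTH of -0.93 for Erf (adjusted p = 0.0309 from limma) and -0.85 for Srf (adjusted p = 0.0455 from limma). Without PTH replicate 1 they were -0.85 and -0.83, and without PTH replicate 2 -1.002 and -0.862, and did not pass. After YKL-05-093 0 of the 14 passed in limma. In the direct comparison Ets1 was higher after PTH (0.76), and Ets2 (-0.42) and Erf (-0.33) were lower. Srf was also lower (-0.31, adjusted p = 0.012 from limma), and only this fit is given for it. In 1 fit of all 6 libraries Ets1, Ets2 and Erf did not pass, with Ets1 at an adjusted p of 0.104 from limma. All 3 were lost without PTH replicate 1 (0.73, -0.44 and -0.25) or PTH replicate 2 (0.78, -0.41 and -0.40). Ets2 (adjusted p = 0.0808 and 0.0776 from limma) and Erf (adjusted p = 0.207 and 0.242 from limma) were also lost without YKL-05-093 replicate 1 or 2, while Ets1 was not.

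The ERK-output genes are those that ERK activity is known to switch on. Of 19 tested, 1 rose and 6 fell after YKL-05-093, where 0.393% of all genes were higher and 0.274% lower. The median log2 change was -0.96, beside -0.042 for all genes and -0.053 for the 7 core members. The list holds genes already known to move in these data, so its counts are not independent evidence of a direction. Dusp6, a phosphatase that inactivates ERK, was at 8.86 and 9.25 RPKM in vehicle, 7.46 and 8.84 with PTH, and 1.04 and 1.23 with YKL-05-093. Egr2, an immediate-early transcription factor, changed by -2.58 on the log2 scale after YKL-05-093, and Spry4, an inhibitor of receptor signalling to RAS, by -2.56. Spry4 had only 11 and 8 reads with YKL-05-093 (0.118 and 0.0841 RPKM), so the size of its change rests partly on the 0.1 added before the log. Spry4 was not called with 1 added in place of 0.1, and neither gene with no filter or the variance trended on the mean value. Without vehicle replicate 1 the calls of Egr2 and Spry4 were also lost, at -2.72 and -2.64. After PTH, 1 rose and 4 fell, where 1.26% of all genes were higher and 0.94% lower. Fos was at 1.90, Spry1 at -1.50 and Dusp7 at -1.22. All 3 calls were lost without PTH replicate 1 (1.74, -1.65 and -1.16) or PTH replicate 2 (2.07, -1.35 and -1.28). In the direct comparison 15 of the 19 were higher after PTH and 0 lower, where 4.85% of genes were higher and 5.11% lower, while 0 of the 7 core members passed. Without either PTH library 0 of these 15 passed in limma.

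**Figure D5:**
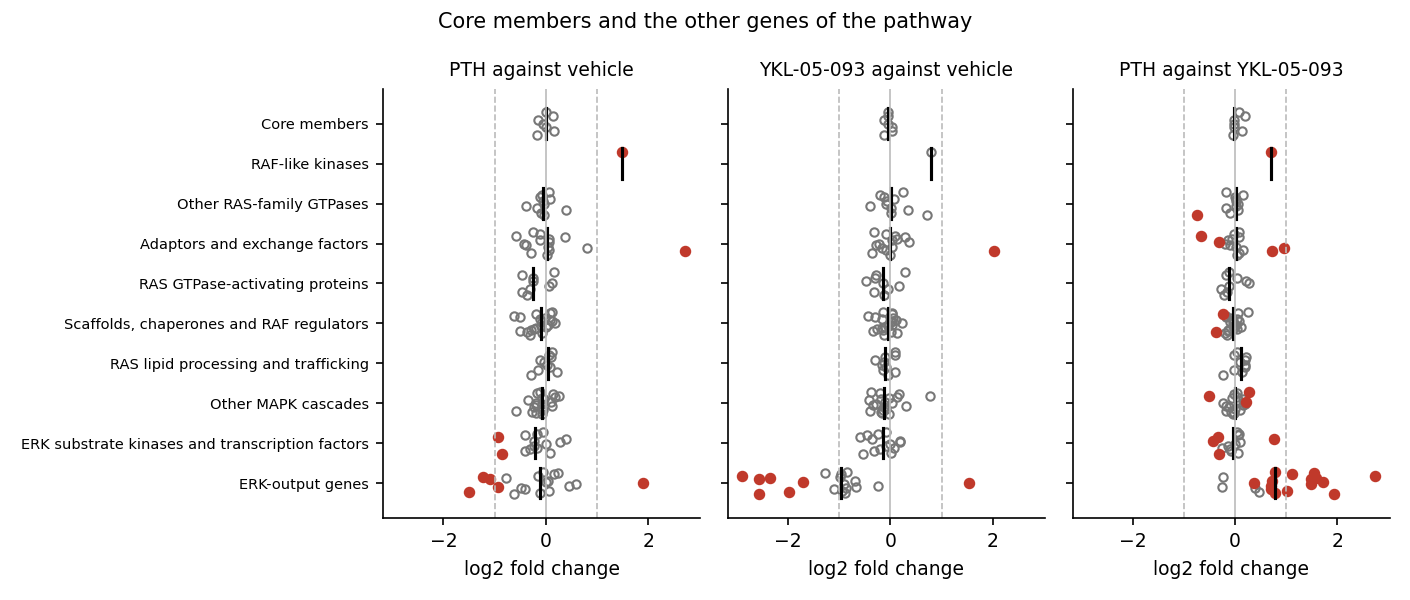
Log2 fold change of each tested gene by list, with the core members in the top row, in the 3 comparisons; filled red points have an adjusted p under 0.05 in limma, black bars are list medians and dashed lines mark a 2-fold change. The core members lie close to 0 in each panel, and the ERK-output genes in the bottom row spread widest.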

How the data were processed

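RNA was depleted of ribosomal RNA, made into directional libraries and sequenced in pairs. Per the study's methods, the authors used STAR for alignment (mm10/GRCm38) and HTSeq 0.6.0 with Ensembl release 75 for counting. They deposited RPKM, the reads of a gene divided by its length and the library's total, on a linear scale with no other scaling. CASAVA 1.7 is also named in the submitters' processing notes. How gene length was taken is not stated.

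Reads behind each RPKM were recovered from the steps between values. For 26214 of 26214 genes above 0, all 6 libraries gave whole reads. The length equals that of merged exons in GENCODE M21 less 1 base per exon for 36.0% of these genes. Recovered reads served only for depth, for the variance trend and for an alternative with voom. RPKM of different genes are comparable only as far as these lengths hold, so members' levels were also computed with annotated lengths.

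Values were tested with limma 3.58.1 (R 4.3.3) after a log2(RPKM + 0.1) transform, which understates changes of low genes. Genes had to reach 0.5 RPKM in 2 or more libraries. Each comparison had its own fit of 4 libraries, leaving out genes at 0 in all 4, with the prior variance trended on mean log2 reads and Benjamini-Hochberg adjustment over all genes tested. Code was tested on simulated data. The members, lists and settings were chosen with earlier results of these data known. Named are all 7 members, of each other list the 3 genes with the largest change per comparison among those with an adjusted p under 0.05, and the 2 genes most like each member. Some genes of the lists are not reported here. Alternatives were other pseudocounts, filters, trends and scaling, voom, 1 fit of all libraries, a replicate block, each library left out, and removal of GC and length trends. Positions are from GENCODE M21 (GRCm38) and promoters from RefSeq (GRCm38.p6).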

Additional observations from a re-analysis of the deposited data

How the results depend on the processing

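With 2 libraries per condition, the standard errors of the members' log2 changes ran from 0.155 to 0.306 against vehicle and from 0.0646 to 0.0793 between the treatments. The count of 0 members with an adjusted p under 0.05 held in every comparison under each of the 10 alternatives that kept all libraries, voom included, with a lowest adjusted p from limma of 0.264 for PTH, 0.726 for YKL-05-093 and 0.0798 between them. Leaving out 1 library gave 0 to 2 members for PTH and 0 to 1 for YKL-05-093.

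The 272 genes called for PTH became 0 with no filter on low values (2343 at an unadjusted p under 0.05), 160 with the variance trended on the mean value, and 14 to 669 with 1 library left out. The 95 for YKL-05-093 became 0 with no filter (1734 at an unadjusted p under 0.05), 6 with that trend, 55 with a pseudocount of 1, 173 in 1 fit of all libraries, 178 with GC and length trends removed, and 11 to 321 with 1 library left out. The 172 between the treatments became 98 with a pseudocount of 1, 102 in 1 fit, 1421 with no limit on the fold, and 0 to 155 with 1 library left out. The cause was not tested.

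The replicate numbers only name libraries, and 2 numbers cannot show pairing. With the replicate number as a block, 440 genes were called for PTH, 215 for YKL-05-093 and 196 between them, and 0 members.

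Changes near 0 turned sign. With GC and length trends removed, Araf (0.011) and Braf (0.12) turned positive for YKL-05-093, and Hras (0.011) and Map2k2 (0.013) between the treatments. Map2k1 turned to 0.0066 for YKL-05-093 with library medians centred. With 1 library left out, the values for PTH ran from -0.38 to 0.083 for Hras, -0.047 to 0.068 for Araf, -0.36 to 0.64 for Braf, -0.11 to 0.00047 for Map2k1 and -0.12 to 0.13 for Map2k2. For YKL-05-093 they ran from -0.36 to 0.10 for Hras, -0.11 to 0.0016 for Araf, -0.55 to 0.45 for Braf, -0.089 to 0.16 for Map2k2 and -0.076 to 0.15 for Mapk3. Between the treatments they ran from -0.053 to 0.012 for Hras, -0.12 to 0.048 for Nras and -0.070 to 0.044 for Map2k1.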
